A study of Homo sapiens with 4 samples.

Results

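The genes described here are 9 that write, read or erase methylation of DNA: the methyltransferases DNMT1, DNMT3A and DNMT3B, the DNMT1 cofactor UHRF1, the methyl-CpG-binding proteins MBD1, MBD2 and MBD4, and the methylcytosine oxidases TET1 and TET2. They were chosen by symbol, and every probe that a RefSeq table paired with one of them was kept apart from the others, 19 of 34127 probes on the array. The table named 19483 genes in all. Probes were kept apart because a probe may also read RNA of the transgene that these cells carry, which was not tested.

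Gene expression was measured in derivatives of LNCaP, a human prostate cancer cell line, with 1 array for each of 4 conditions and so without replicates. TR9-MeTA14 and TR15-MeTA5 are stable lines made from LNCaP in a first step with the Tet repressor (TR9, TR15) and in a second with a tetracycline-regulated construct, NFκB (AD)-MBD, which joins an NFκB activation domain to a methyl-CpG-binding domain behind a FLAG tag. All 4 arrays therefore came from cells with the repressor and the construct: TR9-MeTA14 -Tet, TR9-MeTA14 +Tet, TR15-MeTA5 -Tet and TR15-MeTA5 +Tet, where +Tet is 4 days of tetracycline. The purpose of the system is to raise expression of genes whose promoters are methylated. Arrays of tetracycline-treated cells without the construct were not analysed here, so tetracycline itself and the induced protein cannot be told apart, and with no repeat cultures the spread between cultures is unknown.

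In mammalian cells, DNMT3A and DNMT3B place methyl groups on CpG sites that lack them. DNMT1, brought to newly copied DNA by UHRF1, restores the mark on the daughter strand after replication. MBD proteins bind methylated CpG sites, MBD2 as a subunit of the NuRD repressor complex and MBD4 also as a DNA glycosylase that removes thymine from mismatches at CpG sites. TET enzymes oxidise 5-methylcytosine, a step towards its removal.

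Promoter sequence is shown for 3 of the genes because the construct is built to bind methylated CpG sites: TET1 and MBD2, each with a probe that rose with tetracycline, and DNMT1, with none. Each line holds the 250 bases before a transcription start from RefSeq on GRCh38.p14, on the strand of the gene, with every CG in capitals. The TET1 window lies at chr10:68560087-68560336 on the plus strand, the MBD2 window at chr18:54224670-54224919 on the minus strand and the DNMT1 window at chr19:10194954-10195203 on the minus strand.
TET1: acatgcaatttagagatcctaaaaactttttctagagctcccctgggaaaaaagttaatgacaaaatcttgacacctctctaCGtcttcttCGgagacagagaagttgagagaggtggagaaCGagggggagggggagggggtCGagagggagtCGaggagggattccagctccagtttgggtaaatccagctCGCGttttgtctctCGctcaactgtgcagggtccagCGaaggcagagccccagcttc
MBD2: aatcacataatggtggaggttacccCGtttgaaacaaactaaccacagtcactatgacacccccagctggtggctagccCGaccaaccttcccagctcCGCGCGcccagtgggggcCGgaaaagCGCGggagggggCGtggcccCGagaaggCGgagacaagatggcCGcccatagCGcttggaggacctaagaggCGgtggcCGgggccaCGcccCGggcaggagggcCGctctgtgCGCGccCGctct
DNMT1: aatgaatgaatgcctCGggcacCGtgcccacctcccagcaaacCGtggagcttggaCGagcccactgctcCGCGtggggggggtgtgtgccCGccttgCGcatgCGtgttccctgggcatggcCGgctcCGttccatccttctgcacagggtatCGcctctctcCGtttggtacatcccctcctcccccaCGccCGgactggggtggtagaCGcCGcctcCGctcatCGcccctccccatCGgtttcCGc

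The TET1 window held 9 CG pairs, a number that 54.1% of the 35116 promoter windows of the same length in the table reached or passed. The MBD2 and DNMT1 windows held 21 each, reached or passed by 30.2% of windows. Other starts of TET1 had 4 and 11 pairs. Across all 19 windows of the 9 genes the number ran from 3, at DNMT3B, to 41, at 1 of 3 starts of UHRF1, against a median of 11 over the table. Methylation of these windows was not analysed here, and the counts describe sequence only.

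Signals below are processed signals of Agilent Feature Extraction, in the order TR9-MeTA14 -Tet, TR9-MeTA14 +Tet, TR15-MeTA5 -Tet and TR15-MeTA5 +Tet unless a line is named. Fold changes are ratios after each array was divided by its own 75th percentile, which lay at 617, 777, 367 and 542. Whether a probe was well above background was read from the flag that Feature Extraction sets, which between 20566 and 24222 probes per array carried. Where the dimmer array of a pair was not, the fold is a lower bound under this background subtraction, and another treatment of background can give a smaller value. The technical SD of a log2 ratio, from probes with 10 spots each, was 0.0875 overall and 0.2 for probes with signals under 100. It covers the spread of spots within an array only. A change that exceeds it may still lie within the spread between arrays or cultures, which is unknown. Luminal markers of the prostate were well above background on every array, 10 of 10, while the basal markers KRT5, KRT14 and TP63 and the stromal markers COL1A2, DCN and LUM were so on none. The stromal marker COL1A1 was well above background on all 4 arrays, at 475, 505, 36.4 and 97.6. The luminal markers moved with the treatment. In TR9-MeTA14 +Tet 7 of 10 were at least 2-fold lower and in TR15-MeTA5 +Tet 0 of 10, against 15.1% and 2.21% of named genes. Their summed signal, not scaled between arrays, was 142710 with tetracycline against 315600 without it in TR9-MeTA14. In TR15-MeTA5 it was 230250 against 245710. KLK3 held the largest part, 144070 of the 315600. Of 13 markers of other cell types, between 5 and 7 were well above background, with summed signals of 1098 and 556 without tetracycline and 2334 and 1114 with it in TR9-MeTA14 and TR15-MeTA5. The part of either list in the results below was not tested.

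Among the 19 probes, 18 were well above background on at least 1 array and 14 on all 4. In TR9-MeTA14, 3 of 17 probes with a fold were higher by 2-fold or more with tetracycline and 2 were lower. Over all probes 15.2% were higher and 15.1% lower by that measure. In TR15-MeTA5, 2 of 16 were higher and 0 lower, against 8.5% and 2.67% of all probes. In both lines 2 probes, 1 of TET1 and 1 of MBD2, reached 2-fold higher, against 7.01% of probes. These shares are near those of the array as a whole. None of the 16 was at least 2-fold lower in both lines, and 0.891% of all probes were. The median log2 fold change of the member probes was 0.11 in TR9-MeTA14 and -0.12 in TR15-MeTA5, beside -0.06 and -0.16 over all probes with a fold.

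Over both lines together, limma with cell line as a block called 2 of 17 member probes higher and 0 lower, while 4 of the 17 had an unadjusted p under 0.05, as did 19.5% of all probes tested. Across the array 2.6% of 22810 probes were called higher and 0.0132% lower. The calls were the TET1 probe A_33_P3295550 and the MBD2 probe A_24_P119201. The first entered the test, which asks for 2 arrays well above background, only through the +Tet arrays where it is high, so it had to differ, and the second had 1 array that was not well above background. The fit rests on 4 arrays with 1 residual degree of freedom, and a p that missed the threshold does not show that a probe did not change, so 95% intervals are given.

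**Figure D1:**
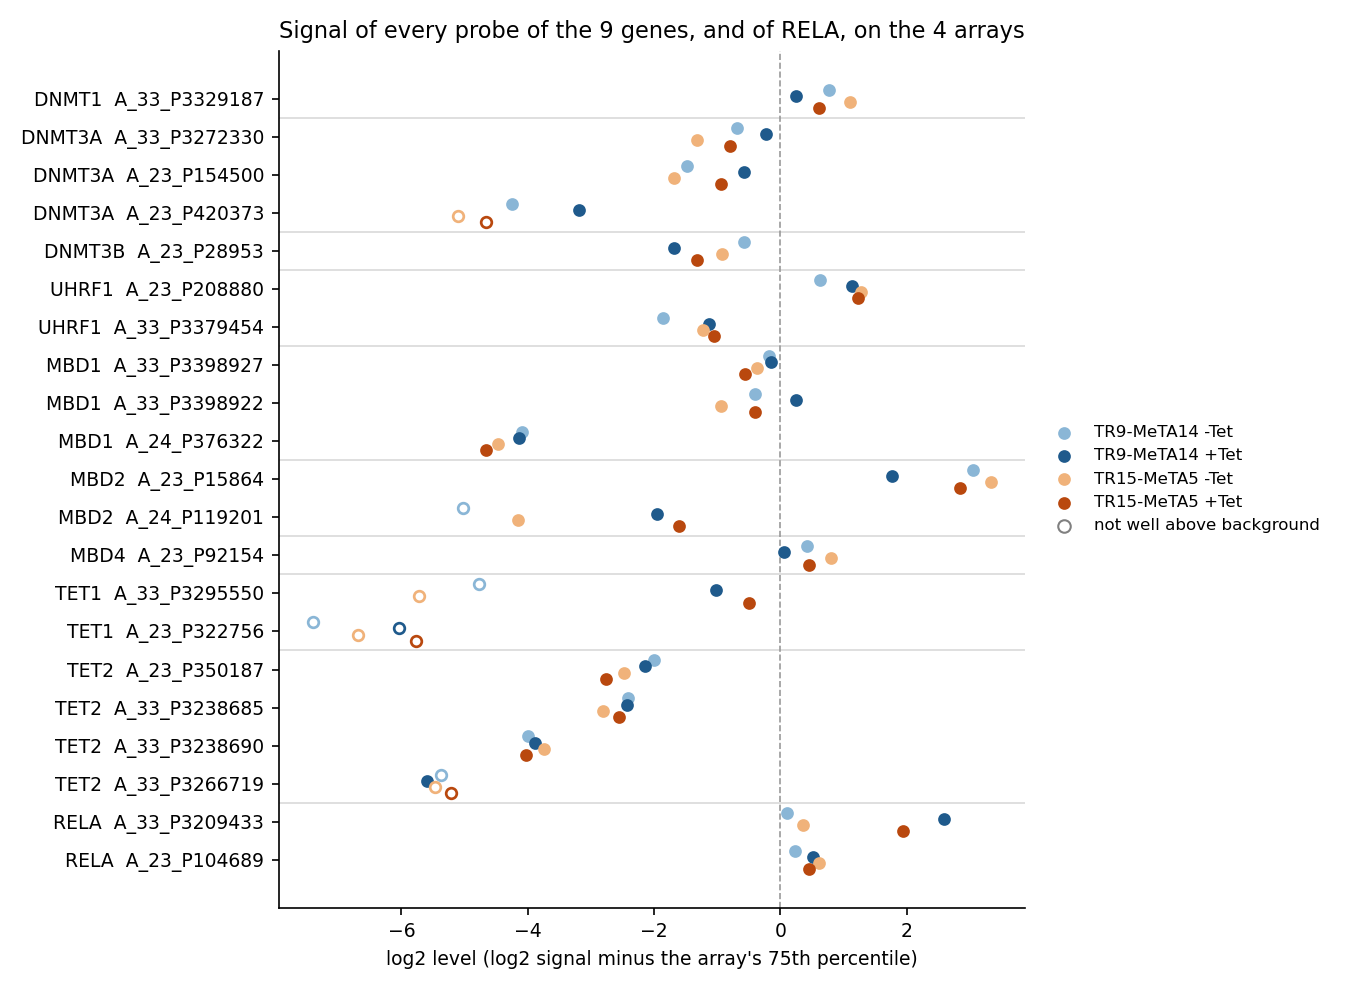
Log2 level of each probe of the 9 genes and of RELA (log2 processed signal minus the 75th percentile of its array, dashed line at 0) on the 4 arrays, 1 point per array, open where the probe was not well above background. The TET1 probe A_33_P3295550 and the MBD2 probe A_24_P119201 stand to the right of their -Tet arrays in both +Tet arrays, with no overlap. For the TET1 probe, flagged only on the +Tet arrays, this had to be so. Other probes, among them those of DNMT1 and DNMT3B, do not overlap between -Tet and +Tet arrays either, and the share of all probes was not counted.

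DNMT1, the maintenance methyltransferase, had 1 probe, A_33_P3329187, with signals of 1058, 922, 783 and 828. The -Tet array was higher before scaling in TR9-MeTA14 and lower in TR15-MeTA5. After scaling the probe was 1.44-fold lower with tetracycline in TR9-MeTA14 and 1.40-fold lower in TR15-MeTA5. The limma estimate was a log2 change of -0.51 ± 0.25 (SE), with an interval from -1.18 to 0.17 and an adjusted p of 0.321, so the difference did not pass. On spike-in scaling the TR15-MeTA5 value was -0.12 on the log2 scale. Under percentile scaling both values exceeded the technical SD. Genes of DNA replication were set beside it, since DNMT1 acts at the fork. All 20 of them were lower in both lines under percentile scaling (in TR15-MeTA5 15 of 20 on spike-ins and 19 of 20 under normexp). Of named genes with a fold, 7979 of 15076 were lower in TR9-MeTA14 and 9191 of 14342 in TR15-MeTA5. Medians of the list were -1.27 in TR9-MeTA14 and -0.51 in TR15-MeTA5 on the log2 scale, beside -0.06 and -0.16 over named genes. Of the 20, 13 were at least 2-fold lower in TR9-MeTA14 and 0 in TR15-MeTA5 (15.1% and 2.21% of named genes). limma called 0 of 20, with 10 at an unadjusted p under 0.05 (21.5% of named genes). The DNMT1 changes of -0.53 and -0.48 were smaller than the median of that list in TR9-MeTA14 and near it in TR15-MeTA5. A link between DNMT1 and these genes was not tested.

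DNMT3A, a de novo methyltransferase, had 3 probes. A_33_P3272330 read 383, 664, 146 and 312, and A_23_P154500 read 221, 524, 114 and 283. Both signals were higher on the +Tet array of each line. The folds were 1.38 and 1.45 for the first probe and 1.88 and 1.68 for the second, in TR9-MeTA14 and TR15-MeTA5. The remaining probe, A_23_P420373, annotated to another transcript, read 32.5, 85.1, 10.6 and 21.5 and was well above background only in TR9-MeTA14, where it was 2.08-fold higher with tetracycline. None of the 3 passed limma, where adjusted p lay at 0.339, 0.233 and 0.333. The interval of A_23_P154500 ran from 0.11 to 1.54 on the log2 scale before adjustment for the number of probes. Each log2 change given for DNMT3A stayed above 0 under the scalings tried, with normexp and quantile normalization giving values from 0.23 to 0.61. Spike-in scaling gave the highest values. There A_23_P154500 stood at 1.03 in TR9-MeTA14 and 1.11 in TR15-MeTA5, past 2-fold in both lines.

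DNMT3B, the second de novo enzyme, had 1 probe, A_23_P28953, with signals of 413, 243, 193 and 218. It was 2.14-fold lower with tetracycline in TR9-MeTA14 and 1.31-fold lower in TR15-MeTA5. The estimate over both lines was -0.74 ± 0.31 (SE) with an interval from -1.58 to 0.10, adjusted p = 0.277 in limma. In TR15-MeTA5 spike-in scaling left a change of -0.03, less than the technical SD. DNMT3A and DNMT3B therefore had opposite signs in both lines under percentile scaling, though neither passed the test and their difference was not tested.

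UHRF1, which reads hemimethylated CpG sites and recruits DNMT1, had 2 probes to the same transcript. A_23_P208880 read 953, 1714, 890 and 1270. A_33_P3379454 was dimmer at 171, 355, 157 and 262. In TR9-MeTA14 they were 1.43-fold and 1.65-fold higher with tetracycline. In TR15-MeTA5 the log2 changes were -0.05 and 0.17, and the sign of the first turned with scaling, to 0.31 on spike-ins. Adjusted p in limma was 0.670 and 0.432. The brighter probe changed little in TR15-MeTA5 and was 1.57-fold higher there than in TR9-MeTA14 without tetracycline, against 1.06-fold with it. All 20 replication genes set beside DNMT1 were lower with tetracycline in TR9-MeTA14, where both UHRF1 probes were higher. That contrast was not tested.

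MBD1, a reader that binds methylated CpG sites and represses transcription, had 3 probes that fell into 2 patterns. A_33_P3398922 read 468, 922, 191 and 410, which is 1.57-fold higher with tetracycline in TR9-MeTA14 and 1.45-fold higher in TR15-MeTA5. A_33_P3398927 read 544, 700, 283 and 369 and A_24_P376322 read 36.1, 44.1, 16.5 and 21.5, with scaled changes of 0.03 and -0.18 for the first and -0.04 and -0.18 for the second on the log2 scale; both TR15-MeTA5 values were 0.18 on spike-ins. Set against A_33_P3398927 on the same array, A_33_P3398922 changed by 0.61 more in TR9-MeTA14 and 0.72 more in TR15-MeTA5, values that involve no scaling between arrays. Both exceed the technical SD. A_33_P3398927 and A_24_P376322 are annotated to the same MBD1 transcript and A_33_P3398922 to another. In TR15-MeTA5 A_24_P376322 lay near the lowest flagged signals of its arrays, 15.4 and 19.2. The split between patterns therefore rests mainly on the brighter probes, A_33_P3398927 and A_33_P3398922. None passed limma, with adjusted p of 0.283 for A_33_P3398922, 0.889 for A_33_P3398927 and 0.877 for A_24_P376322.

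MBD2 is the reader whose probes disagreed most. A_23_P15864, annotated to NM_003927, was the brightest probe of the 9 genes at 5088, 2638, 3697 and 3887. It was 2.43-fold lower with tetracycline in TR9-MeTA14 and 1.41-fold lower in TR15-MeTA5, and the limma estimate of -0.89 ± 0.31 (SE) did not pass, adjusted p = 0.250, with an interval from -1.74 to -0.03 before adjustment. A_24_P119201, annotated to NM_015832, read 18.9, 199.98, 20.7 and 178. The first of these was not well above background.

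Both +Tet arrays lay above both -Tet arrays at A_24_P119201, with no overlap. Scaled levels of other member probes did not overlap either. Among them were DNMT3A A_23_P154500 and UHRF1 A_33_P3379454, higher with tetracycline, and DNMT1, DNMT3B and MBD2 A_23_P15864, lower with it. The share of all probes without overlap was not counted, so this separation cannot be set against the array as a whole. A_24_P119201 was at least 8.42-fold higher in TR9-MeTA14 and 5.84-fold higher in TR15-MeTA5 with tetracycline, and it rose in limma by 2.81 ± 0.33 (SE) on the log2 scale, adjusted p = 0.0376, higher in both of 2 lines. Under normexp with quantile normalization its folds were 2.01 in TR9-MeTA14, below the bound, and 1.83 in TR15-MeTA5. Over the alternatives its adjusted p in limma ran from 0.0168 to 0.0600. It missed the threshold under normexp (0.0600, with an estimate of 0.94) and without the cell line block (0.0526). The ratio of A_24_P119201 to A_23_P15864 on the same array went from at most 0.00371 to 0.0758 in TR9-MeTA14 and from 0.00559 to 0.0459 in TR15-MeTA5, a log2 difference of at least 4.35 and of 3.04 that no scaling of arrays enters. Which of the 2 probes, if either, reads RNA of the construct as well as that of the gene was not tested, and the position of the probes in their transcripts was not analysed here.

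MBD4, the glycosylase, had 1 probe, A_23_P92154, with signals of 828, 810, 637 and 744. The changes were -0.36 in TR9-MeTA14 and -0.34 in TR15-MeTA5 on the log2 scale, and the second was 0.02 on spike-in scaling. In limma the estimate had an interval from -1.03 to 0.32 and an adjusted p of 0.463.

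RELA, which encodes an NFκB subunit with an activation domain and is no member of the group, was read as a comparison because the construct holds an NFκB activation domain whose source gene the sources used here do not name. Its probe A_33_P3209433 read 660, 4658, 468 and 2085, and its probe A_23_P104689, printed in 10 spots, read 723, 1110, 562 and 743. Both are annotated to the same transcript. The first was 5.60-fold and 3.01-fold higher with tetracycline in TR9-MeTA14 and TR15-MeTA5, with an estimate of 2.04 ± 0.33 (SE) that missed the threshold in limma, adjusted p = 0.0700 (0.0166 to 0.0932 over the alternatives, under the threshold in 3 of 11). The second changed by 0.29 and -0.16 on the log2 scale. Relative to the first on the same array, the second changed by -2.20 and -1.75. As for MBD2, a signal from the construct was not tested.

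**Figure D2:**
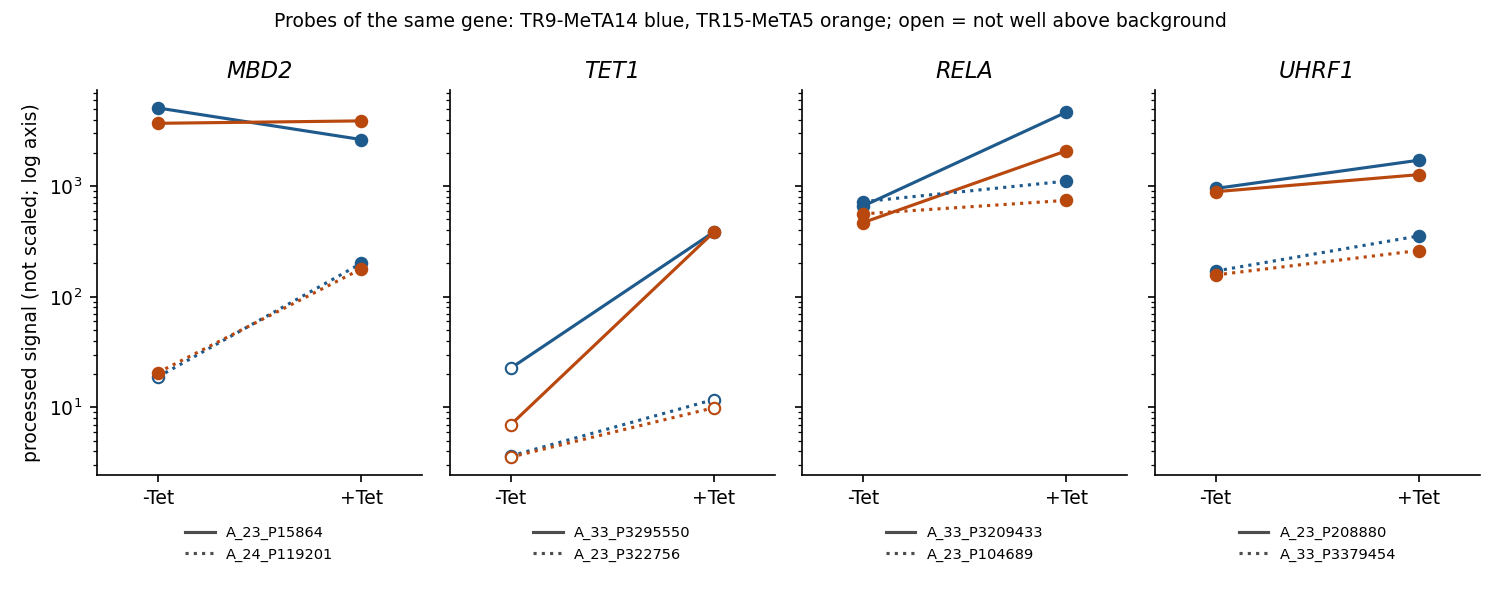
Processed signal (log axis, not scaled between arrays) without and with tetracycline for the probe pairs of MBD2, TET1, RELA and UHRF1, in TR9-MeTA14 (blue) and TR15-MeTA5 (orange), solid and dotted lines for the 2 probes named below each panel and open points where the probe was not well above background. At UHRF1 the lines run side by side, with a difference between its probes of 0.21 and 0.22 on the log2 scale, while at MBD2 and RELA the probes of 1 gene part.

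TET1, an eraser that starts the removal of methyl groups, was not well above background without tetracycline. Its probe A_33_P3295550 read 22.5, 384, 6.95 and 383. It was flagged only on the +Tet arrays, so those had to lie above the -Tet arrays. With tetracycline it was at least 13.5-fold higher in TR9-MeTA14 and at least 16.8-fold higher in TR15-MeTA5. It passed in limma, adjusted p = 0.0303 (0.00466 to 0.0348 over the 10 alternatives that tested it), on -Tet values that are no measured level. It was not tested where all 4 arrays had to be well above background. The sizes depended on the treatment of background: normexp with quantile normalization gave 1.57 in TR9-MeTA14 and 2.18 in TR15-MeTA5 on the log2 scale. Both values lie below the bounds given above.

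A second TET1 probe to the same transcript, A_23_P322756, read 3.63, 11.8, 3.55 and 9.92. None of the 4 was well above background, so it has no fold and its values say nothing of whether the rise was shared. With tetracycline the level at A_33_P3295550 was 1.43-fold higher in TR15-MeTA5 than in TR9-MeTA14 after scaling.

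TET2, the other eraser among the 9, had 4 probes. A_23_P350187 read 154, 176, 66.0 and 80.3, A_33_P3238685 read 116, 144, 52.4 and 92.5, and A_33_P3238690 read 38.5, 52.4, 27.3 and 33.1. The fourth, A_33_P3266719, was well above background on 1 array and has no fold. Log2 changes of the first 3 lay between -0.14 and 0.11 in TR9-MeTA14 and between -0.28 and 0.26 in TR15-MeTA5, and several of them turned sign with scaling. In limma their adjusted p lay between 0.698 and 0.906, and their intervals together reached from -1.03 to 0.91. The difference between TET1 and TET2 was not tested.

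**Figure D3:**
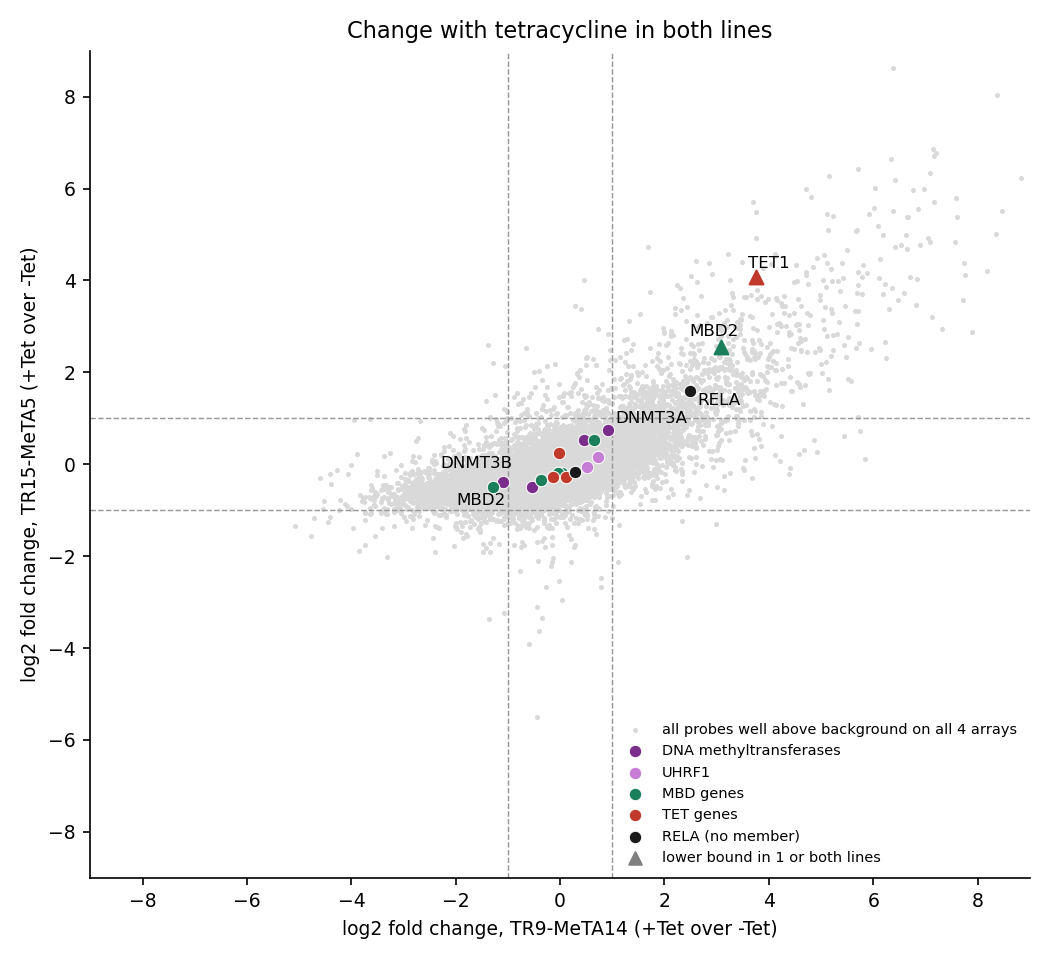
Log2 fold change with tetracycline in TR9-MeTA14 (x axis) against TR15-MeTA5 (y axis), 1 point per probe. Grey points are the probes well above background on each of the 4 arrays, coloured points are member probes with a fold in both lines and RELA, triangles are lower bounds in 1 or both lines, and dashed lines mark 2-fold. The TET1 probe at 3.76 and 4.07, the MBD2 probe at 3.07 and 2.55 and the RELA probe at 2.49 and 1.59 lie above the other coloured points in both lines, among grey points of like size.

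Between the lines, limma found 0 of 17 member probes different and called 0.0% of 22810 probes. An unadjusted p under 0.05 was reached by 1 of the 17 and by 16.0% of all probes. Without tetracycline, 0 of 16 probes with a ratio differed at least 2-fold between TR15-MeTA5 and TR9-MeTA14, beside 13.9% of all probes. With tetracycline 2 of 17 did, beside 24.4%. These were the bright MBD2 probe A_23_P15864, 2.11-fold higher in TR15-MeTA5, and the dim DNMT3A probe A_23_P420373, at least 2.76-fold higher in TR9-MeTA14. For MBD2 the line difference without tetracycline was 1.22-fold. The difference between the lines in their response has no residual degrees of freedom here and was not tested.

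Beyond the 9, a list of 42 other genes of methylated DNA was read by their brightest probes: partners and targets of the enzymes, other methyl-CpG-binding proteins, subunits of NuRD, base excision repair and the supply of methyl groups. Probes were paired with 40 of them, but not with MBD3 or TET3, which were not analysed here. Of 38 with a fold, 4 were higher by 2-fold or more in TR9-MeTA14 and 11 lower, against 16.8% and 15.1% of all named genes by their brightest probes. In TR15-MeTA5, 1 was higher and 0 lower, against 9.78% and 2.21%. The medians were -0.42 and -0.23 on the log2 scale, beside -0.06 and -0.16 over named genes (0.13 for the list in TR15-MeTA5 on spike-ins), and limma called 0 of 38 higher and 0 lower, against 3.22% and 0.0138% of named genes, with 10 at an unadjusted p under 0.05, against 21.5%.

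GADD45B, a stress-induced protein implicated in active demethylation, was the 1 gene of 38 to reach 2-fold higher in both lines, as 8.21% of named genes did. It read 2153, 6332, 922 and 4573, which is 1.22 higher in TR9-MeTA14 and 1.75 higher in TR15-MeTA5 on the log2 scale, and its estimate of 1.48 ± 0.28 (SE) did not pass limma, adjusted p = 0.0972. UHRF2, a relative of UHRF1, read 608, 407, 827 and 659 at its brighter probe and was 1.88-fold lower in TR9-MeTA14 and 1.85-fold lower in TR15-MeTA5, with adjusted p = 0.201 in limma. Its dimmer probe gave -0.53 and -0.22 on the log2 scale.

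**Figure D4:**
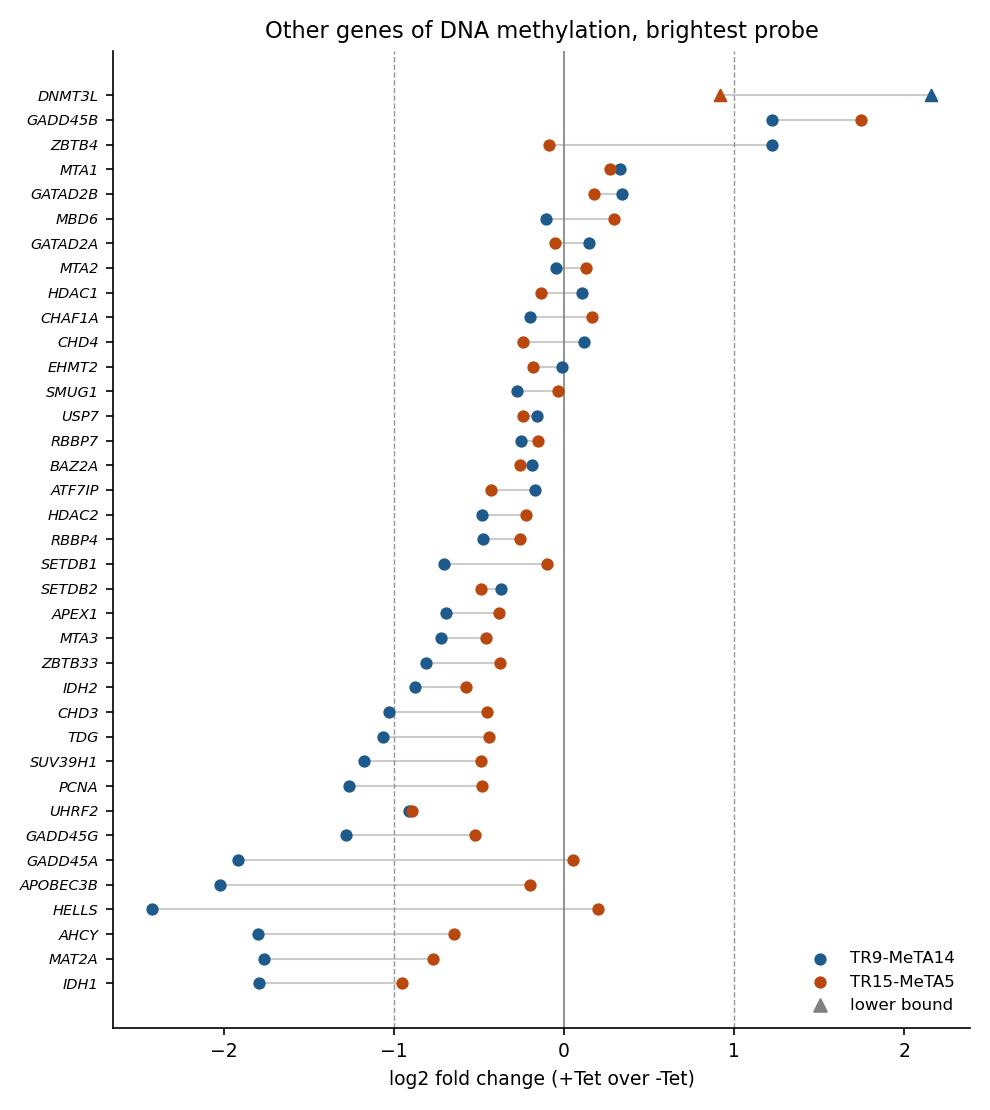
Log2 fold change with tetracycline for other genes of DNA methylation with a fold, by brightest probe, in TR9-MeTA14 (blue) and TR15-MeTA5 (orange). Triangles are lower bounds and dashed lines mark 2-fold. GADD45B lies above 2-fold in both lines and no gene lies below it in both.

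The genes whose 4 levels ran most like a member were sought among 16063 probes with 1 symbol that were well above background on all 4 arrays, by the root mean square difference of the log2 levels of the 4 arrays around their mean. For DNMT1 they were CWC15, TIGD5 and PRRC1, with differences between 0.0169 and 0.0181, and 451 probes lay within 0.1. For UHRF1 they were CIMAP1A, POLR2L and LINC00954, between 0.00711 and 0.0108, with 207 within 0.1. For the bright MBD2 probe they included USP43 and MICA, at 0.0186 and 0.0190, with 161 within 0.1. With only 4 levels each, likeness of this kind is common.

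**Figure D5:**
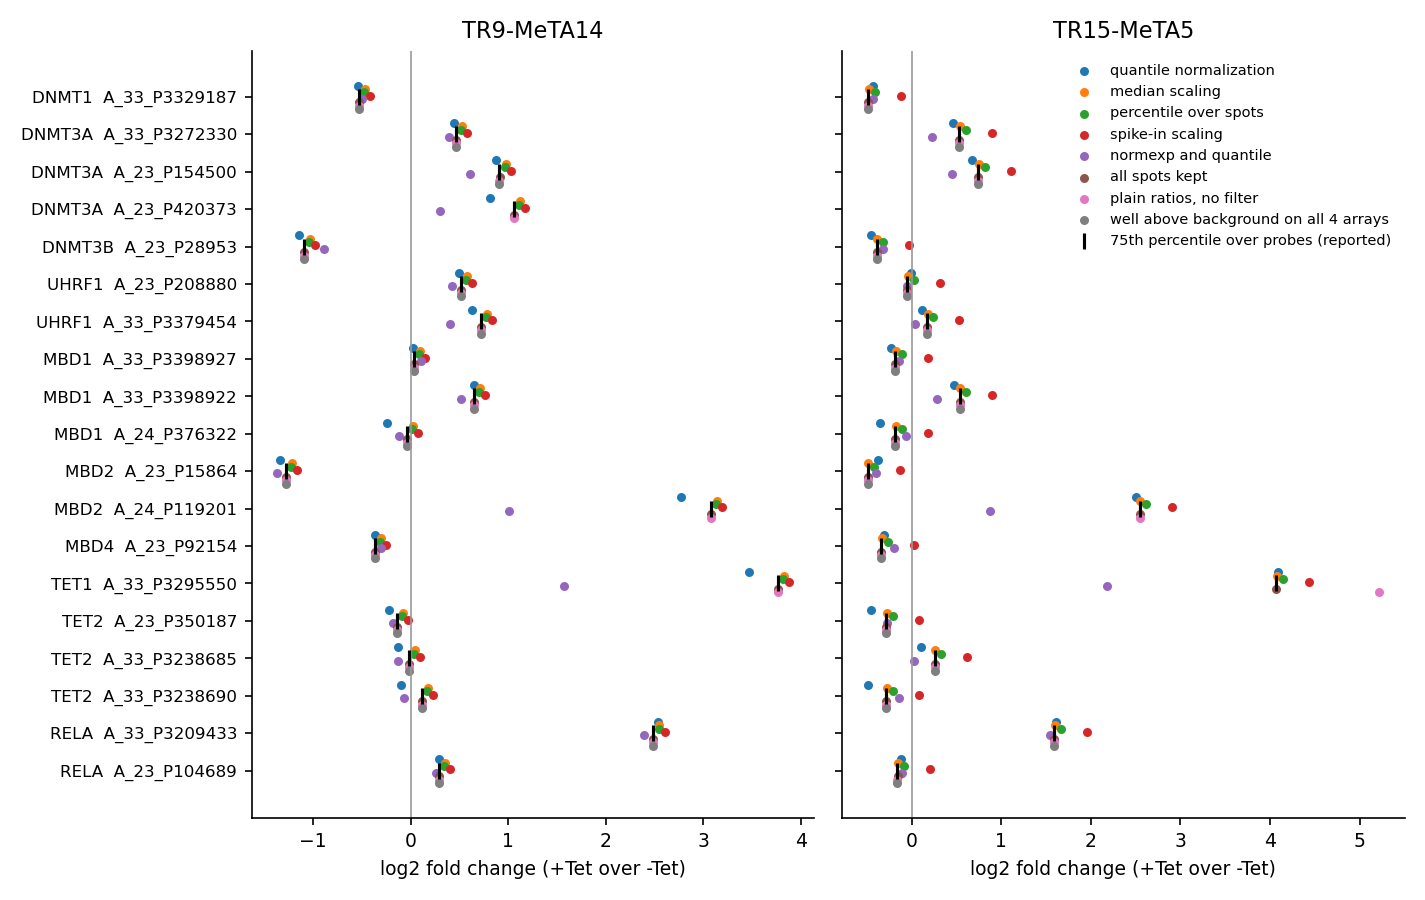
Log2 fold change of each member probe and of RELA under the reported scaling (black bars) and under 8 alternatives (coloured points), in TR9-MeTA14 (left) and TR15-MeTA5 (right). Spike-in scaling moved every probe of TR15-MeTA5 upward by the same amount, and normexp with quantile normalization brought the TET1 probe A_33_P3295550 and the MBD2 probe A_24_P119201 closer to 0 without changing their sign.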

How the data were processed

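RNA was labelled with Cy3 and hybridised to an Agilent whole human genome array (4 x 44K), all 4 arrays on 1 slide, so slide was not a batch. The authors deposited Agilent Feature Extraction output, in which the processed signal is the spot intensity after background subtraction, not normalized between arrays; the file headers name version 10.7.3.1 and the submitters' processing notes 9.5.1. A deposited series table of intensity held the same values on all 44495 rows. No spot was saturated, and 255 to 344 outlier spots per array were left out. Log2 signals of the spots of a probe were averaged and the array's 75th percentile over 34127 probes was subtracted. Probes were named by accession through a RefSeq table (GRCh38.p14), which paired 74.5% with 1 gene. With 1 array per group, folds have no test, and 2-fold was the cut-off, following the methods. A fold was given only where the brighter array was well above background, and as a lower bound where the dimmer array was not; the bound takes the dim probe's signal or the array's lowest flagged signal (13.9 to 19.2), whichever is higher, and is left out under 1. limma 3.58.1 in R 4.3.3 gave the effects over both lines, with line and tetracycline as terms, an intensity trend and intervals at 95%. Its p was adjusted after Benjamini-Hochberg over every probe that 2 or more arrays flagged as well above background, threshold 0.05. In simulated data, under an assumed spread of probes, it recovered 75% of 16-fold and 1% of 4-fold changes. Changes of 4-fold or less could therefore rarely pass. Members, gene lists and tests were chosen with earlier results of these data known. The genes named are all members and RELA, every probe; listed genes at least 2-fold changed the same way in both lines; MBD3, UHRF2 and TET3; and the 3 genes nearest to DNMT1, UHRF1 and MBD2. Some results that this rule names are not reported here, and the closing section names further genes as chosen after their values were seen. The number of arrays limits the precision. Python 3.11.15 with numpy and pandas was used for the rest.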

Additional observations from a re-analysis of the deposited data

Results flagged for a closer look

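The RELA probe A_23_P104689 changed in opposite directions in the 2 lines, by 0.29 in TR9-MeTA14 and -0.16 in TR15-MeTA5 on the log2 scale, each more than the technical SD of a probe of its brightness. The difference was not tested, with 1 array per condition, and on spike-in scaling the TR15-MeTA5 value was 0.20, so that the signs then no longer differed.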

How the results depend on the processing

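Among probes with the flag for signal above background on every array, the median log2 change was -0.15 in TR9-MeTA14 and -0.18 in TR15-MeTA5. Scaled on 8 spike-in probes it was -0.04 and 0.18, a shift of 0.11 and 0.36, so the sign of smaller changes depends on the scaling.

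No probe of the 9 genes or of RELA that was at least 2-fold changed turned sign under the alternatives run. Member probes at least 2-fold lower in TR9-MeTA14 numbered 1 in place of 2 on spike-in scaling and under normexp with quantile normalization, and 0 at a 3-fold cut-off. Those at least 2-fold higher in TR9-MeTA14 numbered 6 at a 1.5-fold cut-off and 0 where probes had to be well above background on all 4 arrays, which leaves out the called probes of TET1 and MBD2 and the dim DNMT3A probe. In TR15-MeTA5 and in both lines they numbered 1 under normexp and 0 with that filter. On spike-in scaling they numbered 4 in TR9-MeTA14, 3 in TR15-MeTA5 and 3 in both lines, with DNMT3A A_23_P154500 added. In limma, 1 member probe was higher under normexp, 1 without the cell line block and 0 with the filter on all 4 arrays. Genes of the wider list higher in both lines numbered 2 on spike-in scaling, 2 with plain ratios and 2 at a 1.5-fold cut-off, GADD45B and DNMT3L, and 0 at 3-fold, and those lower in both lines numbered 4 at 1.5-fold (UHRF2, AHCY, MAT2A and IDH1). limma called 1 of the wider list higher on spike-in scaling (DNMT3L) and 1 with no filter (GADD45B). On spike-in scaling DNMT3L entered the test only through the +Tet arrays where it is high, so it had to differ. Shares of all probes under these alternatives were not counted, so the counts of this paragraph cannot be set against the array as a whole. Leaving out a line leaves no residual degrees of freedom, and the value is then that of the other line. The reported fit pairs the treatments within each line; the labels give no other pairing. Depth is limited by background: the 2 called probes were not well above it in 1 or both lines without tetracycline.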

Other observations

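The GADD45 genes, stress proteins that have been linked to demethylation, did not move together; they were picked out after their values were seen. GADD45A read 2967, 991, 963 and 1478, a log2 change of -1.91 in TR9-MeTA14 and 0.05 in TR15-MeTA5. GADD45G read 7157, 3708, 3130 and 3219, a change of -1.28 and -0.52. GADD45B, described above, was higher in both lines. With the reported settings no GADD45 gene passed limma.

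HELLS, a chromatin remodeller needed for normal DNA methylation, and the enzymes MAT2A, AHCY and IDH1, which make or recycle the methyl donor or the TET cofactor 2-oxoglutarate, were also picked out after their values were seen. HELLS read 273, 64.3, 126 and 214, a change of -2.42 in TR9-MeTA14 and 0.20 in TR15-MeTA5. MAT2A changed by -1.76 and -0.77, AHCY by -1.80 and -0.64 and IDH1 by -1.79 and -0.95. DNMT3L, a catalytically inactive cofactor of the de novo enzymes, had no -Tet array well above background and read 86.7 and 43.1 with it, at least 2.15 higher in TR9-MeTA14 and at least 0.92 higher in TR15-MeTA5 on the log2 scale. None of these genes passed limma with the reported settings.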
